A study of Mus musculus with 60 samples.

Results

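Collagens and laminins are the structural proteins of the extracellular matrix. The set described here held every protein-coding mouse gene whose symbol is that of a collagen chain (Col, a type number, a and a chain number) or of a laminin alpha, beta or gamma chain. Estimated read counts of all transcripts were summed per gene, and the rule found 55 genes, 44 collagens and 11 laminins, among 21530 protein-coding genes and 35889 genes in all. Of the 55, 19 were grouped as basement membrane members (the 11 laminins, the 6 type IV collagen chains and the multiplexins Col15a1 and Col18a1), 11 as fibrillar collagens and 25 as other collagens. All 55 passed the filter on low counts in every comparison, and no member was at 0 in all libraries.

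Laminins are cross-shaped trimers of an alpha, a beta and a gamma chain that bind cell surface receptors and polymerise into a sheet, and type IV collagen forms the covalently linked network that stiffens that sheet into a basement membrane. In brain, basement membranes lie around blood vessels and under the pial surface, where endothelial cells, pericytes and astrocytes make most of their components. Fibrillar collagens assemble into cable-like fibrils, which healthy brain tissue holds mainly in the meninges and around larger vessels. The other collagens decorate fibrils, form beaded filaments or span the plasma membrane, and some of these, such as Col25a1, are made by neurons.

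The libraries came from Ai14xFosiCre mice (Ai14:cFos-TRAP2), in which a tamoxifen-inducible Cre driven by the activity gene cFos switches on the fluorescent reporter tdTomato for good in cells active during a chosen session. Animals of all groups carried this genotype and the same treatment label, dual self-administration of intravenous cocaine and oral sucrose, which was followed by extinction and cue-induced reinstatement of seeking. NeuN-positive cells of the nucleus accumbens (NAc, given as core in the labels, while the methods describe punches of lateral core and lateral shell) and of the prefrontal cortex (mPFC) were sorted by fluorescence into cocaine-seeking (tdTomato alone), sucrose-seeking (cFos protein alone), overlapping (both) and non-ensemble (neither) populations. A library was made from a pool of 3 mice, with 3 female and 3 male pools, and the 4 sorted populations of a region that share a number were taken to come from the same pool. No source used here says that the regions came from different mice, so NAc and mPFC values are not counted as independent. The tags were not exchanged between rewards, so reward, tagging method and session order cannot be told apart. The fifth population, naive, is not described further in the sources used here and carried the same treatment label. Whether its libraries were processed together with the others is not stated, so its biology and its processing cannot be told apart. Ages are not given in the labels. There were 60 libraries in 20 groups of 3, that is 6 libraries for each region and population.

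The 48 libraries of the 4 sorted populations held 9933361 to 24500899 estimated counts and the 12 naive libraries 29238727 to 45299753. Labels and data disagreed in 3 places. The description field of the male mPFC and the female NAc libraries named the opposite sex and region, 2 male mPFC libraries carried female in the sex field, and the titles were used because their sex matched the Y-linked gene Ddx3y in all pools except female pool 2. The 8 sorted libraries labelled female pool 2 held Ddx3y at 11.3 to 20.3 CPM (counts scaled to the size of the library), against 0.0809 to 2.01 CPM in the 16 libraries of female pools 1 and 3 and 15.7 to 43.3 CPM in the 24 male libraries. In mPFC, Slc17a7, a marker of cortical glutamatergic neurons, had 276 to 662 CPM in the 8 sorted libraries of male pools 1 and 3, 21.6 to 98.4 CPM in the other 16 and 130 to 568 CPM in NAc. Naive libraries also differed by sex, since Slc17a7 in mPFC was at 522 to 819 CPM in the female and 202 to 229 CPM in the male ones, which is below the male naive NAc libraries (255 to 274 CPM), and the striatal gene Ppp1r1b in mPFC was at 303 to 478 CPM in female and 719 to 786 CPM in male ones. Values without the libraries that stand apart are given beside the counts of each comparison. In bulk libraries of this kind, fewer cells of a type and less RNA per cell cannot be told apart.

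The type IV genes Col4a1 and Col4a2 are neighbours on chromosome 8 that start from a shared divergent promoter, and their start region is shown because both genes rose in the sucrose-seeking libraries of both regions. In the GRCm39 annotation Col4a1 spans chr8:11248423-11362826 on the minus strand and Col4a2 spans chr8:11362471-11499287 on the plus strand, so the annotated genes overlap by 356 bases. The start region is taken from RefSeq (GRCm38.p6, chr8:11312801-11312830) and printed from 5' to 3' on the strand of each gene, with the 22 bases from the first base of Col4a2 to the first base of Col4a1 in capitals.
Col4a2: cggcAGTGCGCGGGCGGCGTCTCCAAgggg
Col4a1: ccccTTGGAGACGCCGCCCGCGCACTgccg
The capitals of the second line are the reverse complement of those of the first, so the same bases begin both transcripts. Whether reads kept their strand is not stated in the sources used here, so counts in the shared stretch could belong to either gene.

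RefSeq promoter entries (250 bases before the start) were matched for 40 of the 55 members, with 44 entries among 32851. Those of Col11a1, Col6a1 and Col6a3 are printed in GRCm38.p6 because Col11a1 and Col6a1 roughly doubled in sucrose-seeking libraries and Col6a3 differed most between regions. They lie at chr3:114030290-114030539 (plus strand), chr10:76726045-76726294 (minus) and chr1:90843972-90844221 (minus). Capitals mark matches on either strand to the GC box GGGCGG, the CCAAT box CCAAT or the TATA box TATAAA.
Col11a1: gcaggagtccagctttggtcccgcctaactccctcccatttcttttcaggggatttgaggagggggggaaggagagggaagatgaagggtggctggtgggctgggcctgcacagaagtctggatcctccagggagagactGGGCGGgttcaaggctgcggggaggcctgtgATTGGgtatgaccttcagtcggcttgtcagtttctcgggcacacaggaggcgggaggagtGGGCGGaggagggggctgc
Col6a1: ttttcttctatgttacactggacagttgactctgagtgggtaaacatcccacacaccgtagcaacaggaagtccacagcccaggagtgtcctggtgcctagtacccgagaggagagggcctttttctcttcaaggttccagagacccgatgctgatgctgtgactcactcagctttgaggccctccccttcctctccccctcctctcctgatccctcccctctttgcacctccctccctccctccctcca
Col6a3: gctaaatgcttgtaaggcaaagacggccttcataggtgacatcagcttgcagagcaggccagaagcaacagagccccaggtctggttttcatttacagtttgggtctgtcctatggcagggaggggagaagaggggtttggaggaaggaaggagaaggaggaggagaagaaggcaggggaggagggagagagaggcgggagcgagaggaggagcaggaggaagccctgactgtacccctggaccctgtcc
The Col11a1 window held 2 GC boxes and 1 CCAAT box (on the other strand, read as ATTGG) with a GC content of 62.4%, whereas the Col6a1 (56%) and Col6a3 (57.2%) windows held none of the 3 motifs. The median GC content over all entries was 52.4%. Over all 32851 entries, 32.7% held a GC box, 33.8% a CCAAT box and 12.4% a TATA box, and over the 44 member entries these shares were 54.5%, 31.8% and 11.4%. A match describes the letters only.

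Levels were compared between genes as deposited TPM (scaled to transcript length as well as to library size), averaged over the 48 sorted libraries. The transmembrane collagen Col25a1 was highest at 158 TPM, followed by the type VI chain Col6a1 at 144 TPM and by Col4a2 at 70.9 TPM. These 3 kept their order when annotated lengths replaced the effective lengths of the quantification (90.9, 60.5 and 28.9 TPM). Among the laminins, the most abundant by deposited TPM were the beta chains Lamb2 (32.1 TPM), Lamb3 (30.0 TPM) and Lamb1 (27.5 TPM), the gamma chain Lamc1 (18.8 TPM) and, of the alpha chains, Lama2 (11.03 TPM) and Lama5 (9.24 TPM). With annotated lengths Lamb1 was first among them at 24.8 TPM, and Lamb2 had 12.6 TPM, so the order within the laminins depends on the length used. Fibrillar members were led by Col11a2 (49.2 TPM) and Col27a1 (28.4 TPM), while the classic fibril chains Col1a1 and Col3a1, named after their values were seen, had 14.1 and 1.56 TPM. The FACIT collagens (fibril-associated, with interrupted triple helices) were led by Col16a1 (33.6 TPM) and Col9a3 (33.1 TPM), the short chain class by Col8a2 (7.93 TPM) and the mixed class of anchoring and other collagens by Col26a1 (39.9 TPM).

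The lowest values are hard to tell from background. The 1193 odorant receptor genes, which brain neurons are not known for, averaged 3.90 TPM over the same libraries, and 13 of the 55 members lay below that mean, among them Col3a1, Col10a1 and the minor type IV chains Col4a3, Col4a4, Col4a5 and Col4a6. Some high levels came from transcripts not annotated as protein-coding, such as retained introns. These took 88.3% of the counts of Col27a1, 72.8% of Col26a1, 58.8% of Lamb3, 57.5% of Col16a1, 38.7% of Col4a1 and 37.3% of Col25a1, against 1.55% for Col4a2, 0.614% for Col6a1 and 0.849% for Lama5.

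**Figure D1:**
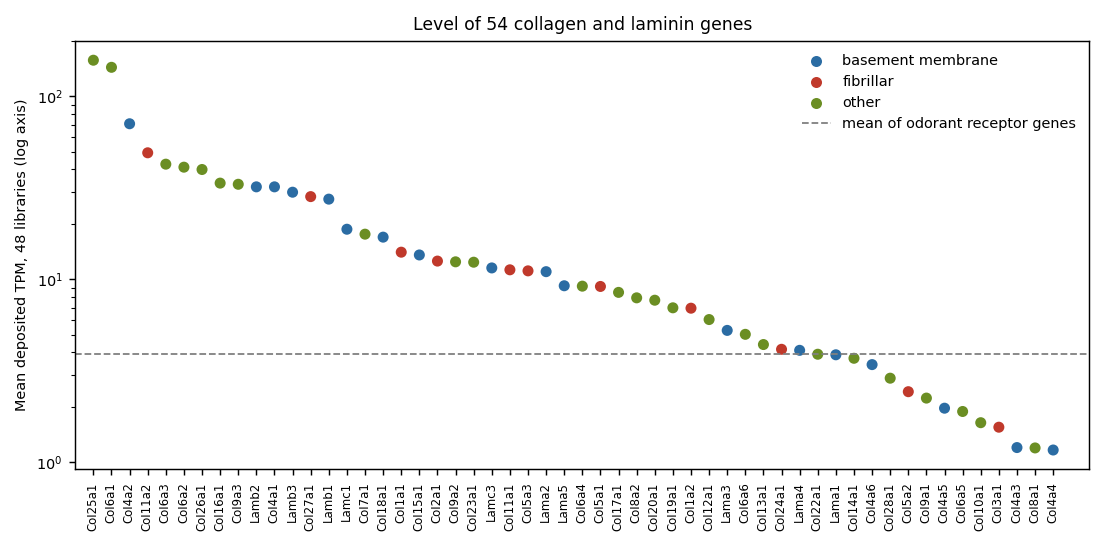
Mean deposited TPM over 48 sorted libraries (log axis) for 54 of the collagen and laminin genes, in descending order and coloured by group, with the mean of 1193 odorant receptor genes as a dashed line at 3.90 TPM. Col25a1, Col6a1 and Col4a2 lie highest, and 13 members lie below the line.

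Sucrose-seeking libraries held more collagen and laminin RNA than non-ensemble libraries of the same region. In NAc, 19 of 55 members were higher and 1 was lower at an adjusted p under 0.05 in edgeR's quasi-likelihood test, where 11.2% of all 27546 genes tested were higher and 15.8% were lower. The median log2 fold change was 0.46 over the members and 0.20 over all genes, and 48 members had a positive value against 60.3% of all genes. In mPFC, 15 members were higher and 0 lower, where 6.61% of 28851 genes were higher and 6.36% lower, with medians of 0.45 and 0.12. The 13 members called in both regions made up 68.4% of the NAc calls and 86.7% of the mPFC calls. An interaction test with edgeR called 0 members as differing between regions, with 3 at an unadjusted p under 0.05. The test of a sex difference called 0 members in either region, with 2 in NAc and 3 in mPFC at an unadjusted p under 0.05.

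By group, the calls were spread over all 3 kinds of member. Basement membrane members were higher in 7 of 19 cases in NAc (median log2 fold change 0.52) and in 4 of 19 in mPFC (0.44), with 0 lower in either region. Of the 11 fibrillar members, 6 were higher and 1 was lower in NAc (median 0.61) and 5 were higher in mPFC (0.71). The 25 other collagens gave 6 calls in each region, all higher, with medians of 0.46 and 0.39. Summed over the group, basement membrane members held 385 to 503 CPM in sucrose-seeking NAc libraries (median 481) and 328 to 409 CPM in non-ensemble ones (median 366). The fibrillar sums did not overlap in NAc, at 213 to 283 CPM (median 235) against 122 to 191 CPM (median 152).

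**Figure D2:**
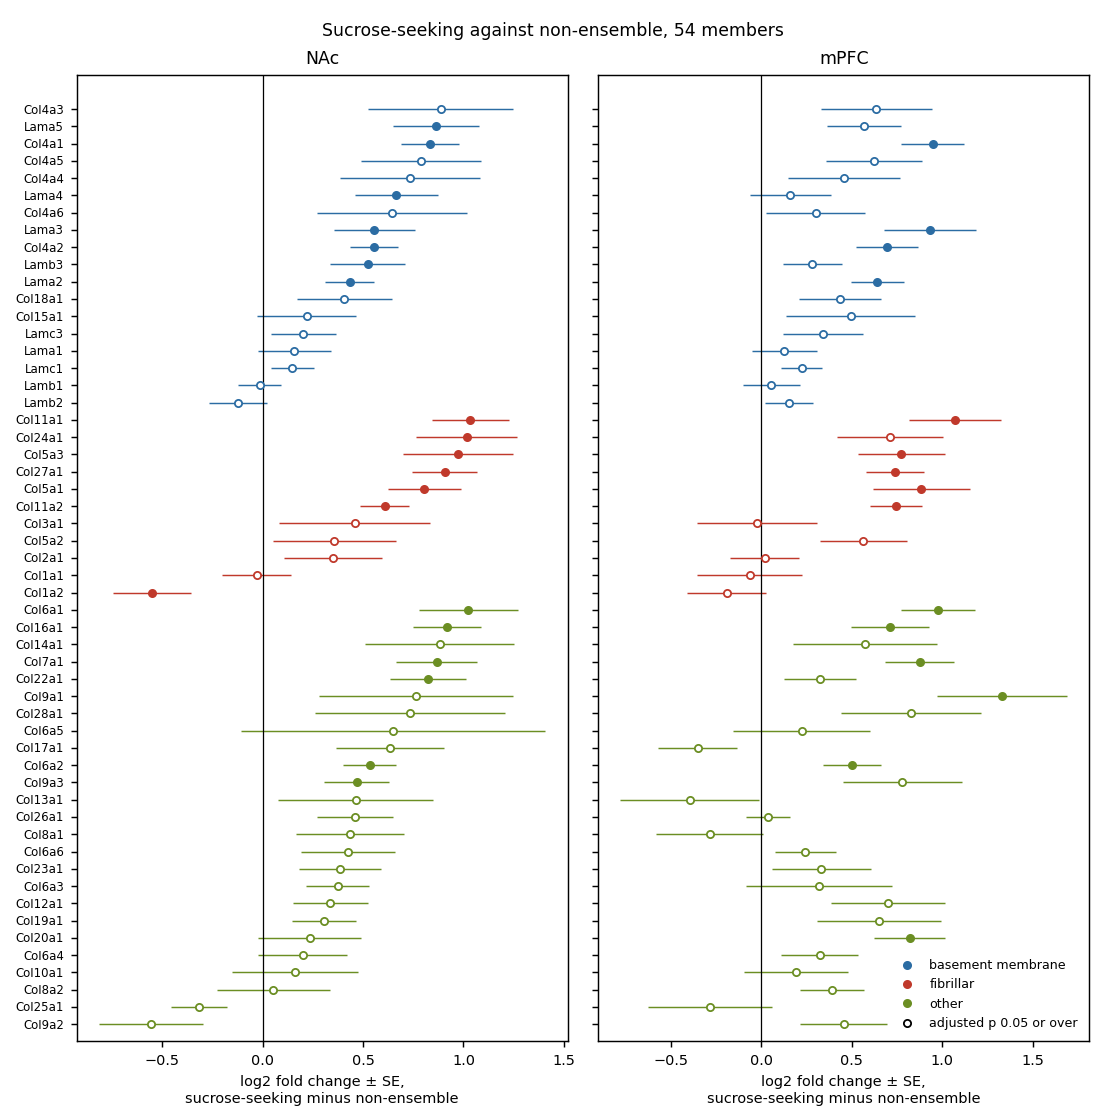
log2 fold change with its standard error (6 against 6 libraries a region) of 54 members, sucrose-seeking minus non-ensemble, in NAc (left) and mPFC (right), coloured by group, with open symbols at an adjusted p of 0.05 or over. Most points lie right of 0 in both panels (48 and 47 of 54), while Lamb1 and Col1a1 lie near 0 and Col1a2 and Col25a1 lie left of it.

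Within the basement membrane, the members called were type IV collagen and laminin alpha chains, apart from Lamb3 in NAc. The classes were not tested against each other. Col4a1, which pairs with Col4a2 in the main vascular type IV trimer, had 71.8, 72.2 and 77.9 CPM in the sucrose-seeking libraries of NAc female pools 1 to 3 and 47.2, 81.1 and 72.3 CPM in those of the male pools. The matching non-ensemble libraries had 40.1, 39.2 and 35.1 CPM and 27.2, 59.1 and 36.3 CPM. Each pool was higher in its sucrose-seeking library, although the ranges overlapped because male pool 1 was low and male pool 2 high in both. The log2 fold change of Col4a1 was 0.83 (SE 0.14, adjusted p = 0.000163). In mPFC its values were 51.2 to 119 CPM (median 82.8) against 32.4 to 64.4 CPM (median 39.4), a log2 fold change of 0.95 (SE 0.17, adjusted p = 0.00177). Male mPFC pools 1 and 3, those with the higher Slc17a7 levels, had 119 and 79.7 CPM against 64.4 and 43.0 CPM. When only protein-coding transcripts were counted, Col4a1 missed the threshold, at 0.63 in NAc (adjusted p = 0.445) and 0.70 in mPFC (adjusted p = 0.219).

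Col4a2, with nearly all counts on protein-coding transcripts, had 63.5 to 111 CPM (median 107) in sucrose-seeking and 59.8 to 79.5 CPM (median 66.4) in non-ensemble NAc libraries. It was higher in 6 of 6 pools, with a log2 fold change of 0.55 (SE 0.12, adjusted p = 0.00112). In mPFC it rose by 0.69 (SE 0.17, adjusted p = 0.01), again in 6 of 6 pools. The 4 minor chains, Col4a3 to Col4a6, had log2 fold changes of 0.64 to 0.89 in NAc at no more than 7.49 CPM and did not pass the test.

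Of the 5 laminin alpha chains, which carry the receptor-binding domains, 4 were higher in NAc and 2 in mPFC. Lama2, the alpha chain of laminin-211 in muscle, vessels and glia, had 25.2 to 38.1 CPM (median 30.9) against 19.0 to 28.1 CPM (median 23.0) in NAc, a log2 fold change of 0.43 (SE 0.12, adjusted p = 0.00935). In mPFC its ranges barely touched, at 33.3 to 48.7 CPM against 21.2 to 33.8 CPM, with a log2 fold change of 0.64 (SE 0.15, adjusted p = 0.0067). Lama5, with Lama4 a main alpha chain of endothelial basement membrane, had 13.6 to 19.0 CPM (median 18.01) against 4.39 to 14.6 CPM (median 9.13) in NAc. The log2 fold change of Lama5 was 0.86 (SE 0.21, adjusted p = 0.00347) in NAc, and in mPFC it was 0.57 in the same direction in 6 of 6 pools but missed the threshold (adjusted p = 0.0695). Lama4 was higher in NAc by 0.67 (SE 0.21, adjusted p = 0.0181) and had 0.16 in mPFC. Lama3, a chain of the epithelial laminin-332, was higher by 0.56 in NAc (adjusted p = 0.0415) and by 0.93 in mPFC (adjusted p = 0.0173). The NAc call of Lama3, like that of Lamb3 (0.52, adjusted p = 0.0383), remained in only 6 of the 12 fits that left out 1 library. The Lamb3 call was also lost with protein-coding transcripts only.

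Among the beta and gamma chains, without which no laminin trimer forms, Lamb3 in NAc was the sole call, and alpha chains were not tested against them. Lamb1 had 33.9 to 53.1 CPM (median 46.4) in sucrose-seeking and 33.3 to 58.0 CPM (median 46.0) in non-ensemble NAc libraries, a log2 fold change of -0.02 (SE 0.11, adjusted p = 0.934). Lamc1, the gamma chain of most laminins, had 0.15 (SE 0.11) in NAc and 0.22 (SE 0.11) in mPFC, and Lamb2 had -0.12 and 0.15. Lamb1, Lamb2 and Lamc1 did not pass the test in either region. The class medians were 0.56 for alpha, -0.02 for beta and 0.15 for gamma chains in NAc, and 0.57, 0.15 and 0.22 in mPFC. The multiplexins Col15a1 (0.22 and 0.49) and Col18a1 (0.41 and 0.44), collagens of vascular basement membranes, did not pass the test in either region.

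**Figure D3:**
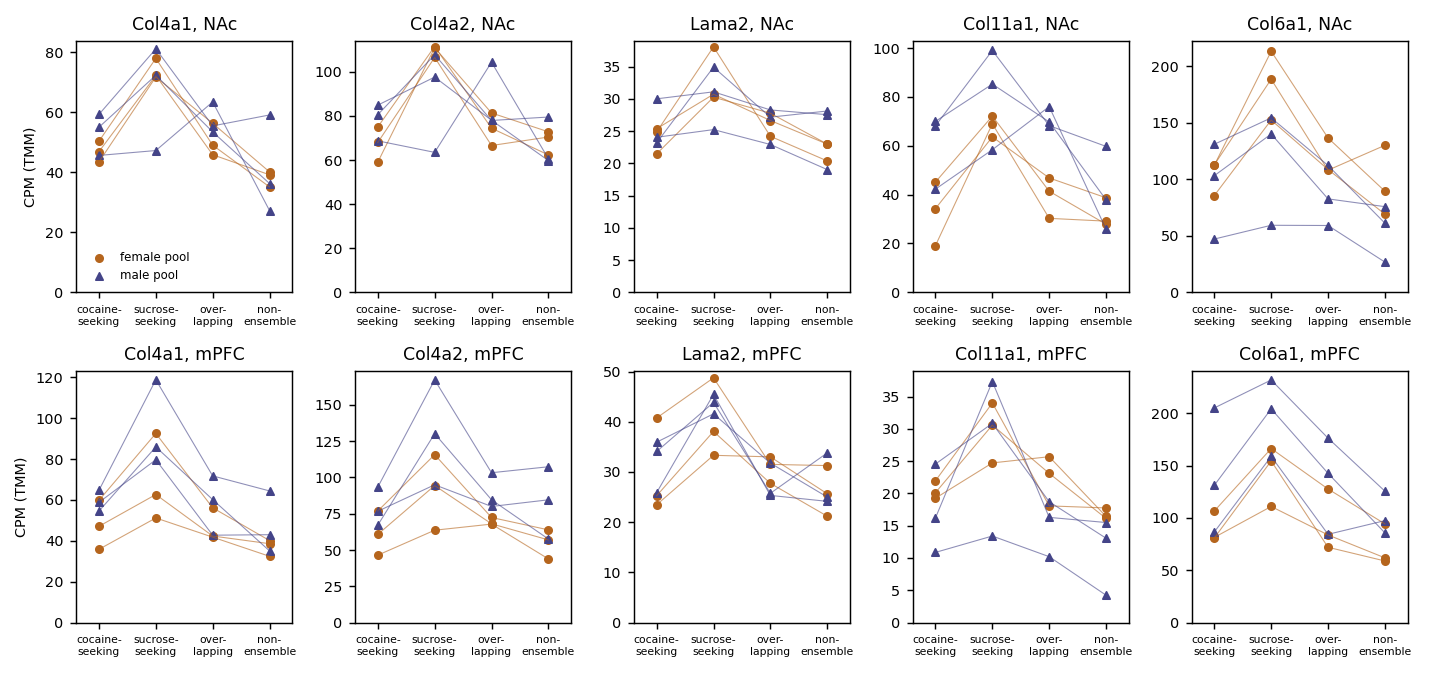
CPM per library (TMM scaling, axes from 0) of Col4a1, Col4a2, Lama2, Col11a1 and Col6a1 in the 4 sorted populations of NAc (top) and mPFC (bottom), with a line for each pool, circles for female and triangles for male pools. Lines of Col4a1 and Col6a1 are higher at sucrose-seeking than at non-ensemble in all pools of both regions.

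Among fibrillar collagens, Col5a1, Col5a3, Col11a1, Col11a2 and Col27a1 were called higher in both regions and Col24a1 in NAc. Col1a1, Col1a2, Col2a1, Col3a1 and the type V chain Col5a2 were not called higher in either region. Col11a1, which nucleates fibrils and limits their width, had 58.4 to 99.0 CPM (median 70.6) against 25.9 to 59.7 CPM (median 33.5) in NAc, with overlap through a single non-ensemble library of male pool 2. Its log2 fold change was 1.03 (SE 0.19, adjusted p = 0.000299) in NAc. In mPFC it had 13.4 to 37.3 CPM (median 30.7) against 4.24 to 17.8 CPM (median 15.8), a log2 fold change of 1.07 (SE 0.25, adjusted p = 0.0079). Its partner Col11a2 rose by 0.61 (SE 0.12, adjusted p = 0.000534) and 0.74 (SE 0.14, adjusted p = 0.00245).

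Col5a1, the type V chain that starts collagen fibrils, did not overlap between groups in NAc, at 18.3 to 29 CPM against 7.06 to 17.9 CPM (log2 fold change 0.81, adjusted p = 0.00162). Col24a1 did not overlap there either, at 8.75 to 15.1 CPM against 3.10 to 7.93 CPM (1.02, adjusted p = 0.00357), and in mPFC it had 0.71 (adjusted p = 0.109). Col27a1 did not overlap in either region, at 21.2 to 25.2 CPM against 7.19 to 15.9 CPM in NAc and 27.1 to 42.1 CPM against 12.1 to 23.0 CPM in mPFC. Its log2 fold changes were 0.91 (SE 0.16, adjusted p = 0.000215) and 0.74 (SE 0.16, adjusted p = 0.00472). Since most Col27a1 counts were on noncoding transcripts, its protein-coding transcripts alone gave 0.55 (adjusted p = 0.501) and 1.16 (adjusted p = 0.178).

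Col1a2, the second chain of type I collagen, was the member lower in sucrose-seeking NAc libraries, at 5.28 to 15.8 CPM (median 7.48) against 8.35 to 17.2 CPM (median 11.6). It was lower in 6 of 6 pools, with a log2 fold change of -0.55 (SE 0.19, adjusted p = 0.035), but the call remained in only 1 of 12 fits that left out a library and in 3 of 9 other alternatives. Col1a1 had -0.03 in NAc and -0.06 in mPFC, and Col1a2 had -0.19 in mPFC.

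The type VI chains Col6a1 and Col6a2 assemble with another chain, mostly Col6a3, into beaded filaments near basement membranes. Col6a1 had 188, 152 and 213 CPM in the sucrose-seeking libraries of NAc female pools 1 to 3 and 59.3, 140 and 154 CPM in those of the male pools, against 130, 69.1 and 89.4 CPM and 26.8, 75.7 and 61.1 CPM in the non-ensemble libraries. All 6 pools were higher, with male pool 1 low in both populations, and the log2 fold change of Col6a1 was 1.02 (SE 0.25, adjusted p = 0.00274). In mPFC, Col6a1 had 111 to 232 CPM (median 163) against 58.9 to 126 CPM (median 90.1), a log2 fold change of 0.98 (SE 0.21, adjusted p = 0.00395). Col6a2 rose by 0.53 (adjusted p = 0.0037) and 0.50 (adjusted p = 0.0403), and the mPFC call of Col6a2 remained in 3 of 10 alternatives and in 4 of 12 fits that left out a library. Col6a3 had 0.37 in NAc (adjusted p = 0.0778) and 0.32 in mPFC (adjusted p = 0.67), where its spread was wide.

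Col7a1, the anchoring fibril collagen known from skin, did not overlap between groups in either region, at 10.6 to 15.5 CPM against 4.88 to 8.85 CPM in NAc and 16.6 to 24.8 CPM against 6.63 to 15.7 CPM in mPFC. Its log2 fold change was 0.87 in both (adjusted p = 0.00201 and 0.00463). The FACIT member Col16a1 rose by 0.92 (adjusted p = 0.000284) and 0.71 (adjusted p = 0.0307), in 5 of 6 pools of each region, and the mPFC call of Col16a1 remained in 5 of 10 alternatives and in 7 of 12 fits that left out a library. Col22a1 (0.82, adjusted p = 0.00192) and Col9a3 (0.47, adjusted p = 0.0305) were called in NAc, and Col20a1 (0.82, adjusted p = 0.00829) and the type IX cartilage chain Col9a1 (1.33, adjusted p = 0.0169) in mPFC. The Col9a3 call was lost in males alone, with protein-coding transcripts only and without female pool 2. Col9a1, at 2.25 TPM, lay below the odorant receptor mean of 3.90 TPM.

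Col25a1, the most abundant member and a membrane collagen of neurons, moved the other way without passing the test. It had 56.0 to 88.3 CPM (median 71.1) in sucrose-seeking and 75.02 to 114 CPM (median 88.7) in non-ensemble NAc libraries and was lower in 6 of 6 pools, with a log2 fold change of -0.32 (adjusted p = 0.0901) in NAc and -0.28 (adjusted p = 0.653) in mPFC. In both regions, 12 of the 55 members (21.8%) were higher in the sucrose-seeking library of each of the 6 pools, where 6.34% of 27178 genes tested in both regions were. They were Col4a1, Col4a2, Lama2, Lama3, Lama5, Col5a3, Col11a1, Col24a1, Col27a1, Col6a1, Col7a1 and Col9a1, the last of which lay below the odorant receptor mean in level.

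The calls depended on which libraries were used. Females alone gave 14 higher members in NAc, where 1481 of 25607 genes were higher. Males alone gave 4, where 705 of 24917 genes were higher. Without female pool 2, 19 members were higher and 0 lower in NAc, where 3107 of 28138 genes were higher and 3452 lower. The mPFC count fell from 15 to 7, where 660 of 29373 genes were higher. Besides Col6a2 and Col16a1, the mPFC calls of Col5a1 and Col5a3 remained in 4 and 3 of the 12 fits that left out a library. In mPFC, females alone, males alone and male pools 1 and 3 alone each gave 0 calls, with a member median of 0.56 in the last. Over all genes, 7 were higher and 0 lower of 27973 in females, and 49 and 3 of 25409 in males. Male pools 1 and 3 gave 2 higher and 2 lower of 25677 genes. With so few genes called, these counts of 0 do not show that the members were alike. With the pool as a block the counts were 22 higher and 3 lower in NAc and 21 higher and 1 lower in mPFC. Over all genes, the block gave 3945 higher and 5118 lower of 27546 in NAc, and 3474 and 3816 of 28851 in mPFC.

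Other genes moved in the same libraries, and their part in the result was not tested. Of 13 endothelial marker genes, 12 were higher in sucrose-seeking NAc libraries and 0 lower, with a summed level of 154 to 370 CPM (median 329) against 131 to 200 CPM (median 159) and a median log2 fold change of 1.15. In mPFC, 4 were higher and 0 lower, with sums of 219 to 271 CPM against 97.9 to 206 CPM that did not overlap. The vascular growth factor receptor Flt1 led this list in NAc with 1.20 (adjusted p = 7.5e-05), and the tight junction gene Cldn5, a defining endothelial marker, had 3.03 to 23.98 CPM against 2.11 to 8.79 CPM there. Of 11 mural cell markers, 7 were higher in NAc (99.0 to 176 CPM against 83.9 to 109 CPM) and 2 in mPFC (127 to 146 CPM against 76.6 to 132 CPM). Of 12 fibroblast and meningeal markers, 1 was higher and 1 lower in NAc, with sums of 41.6 to 62.3 CPM against 34.3 to 92.9 CPM, and 0 were called in mPFC by edgeR (1 at an unadjusted p under 0.05).

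Markers of neurons, the cells the sort was set to collect, were lower, and so were several glial markers. All 8 neuronal markers fell in NAc, with sums of 3303 to 4442 CPM against 5708 to 6387 CPM that did not overlap, and 5 fell in mPFC. Of 8 astrocyte markers, 7 fell in NAc and 3 in mPFC. Of 8 oligodendrocyte markers, 3 fell in each region, and of 8 microglial markers 1 fell in NAc and 2 in mPFC. Of 9 striatal and 9 cortical excitatory neuron genes, 5 and 4 fell in NAc and 0 were called in mPFC by edgeR (0 at an unadjusted p under 0.05), and of 8 activity genes 3 fell in NAc while 1 rose and 2 fell in mPFC. Endothelial markers summed to at least 97.9 CPM in each of the 48 sorted libraries, and no gene of these lists was at 0 in all libraries.

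Transcripts with no known brain role were higher as well. Odorant receptor genes took 1.39% to 2.63% of counts in sucrose-seeking NAc libraries against 0.684% to 1.30% in non-ensemble ones, higher in 6 of 6 pools, and 218 of 1147 tested receptors (19.0%) were called higher and 0 lower with a median log2 fold change of 0.74. In mPFC they took 1.40% to 4.33% against 0.982% to 3.37%, also higher in 6 of 6 pools, with 109 of 1174 (9.28%) called higher and a median of 0.48. The member medians of 0.46 and 0.45 are below these, and the share of members called higher, 34.5% and 27.3%, is above. The part of these transcripts in the member result was not tested.

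**Figure D4:**
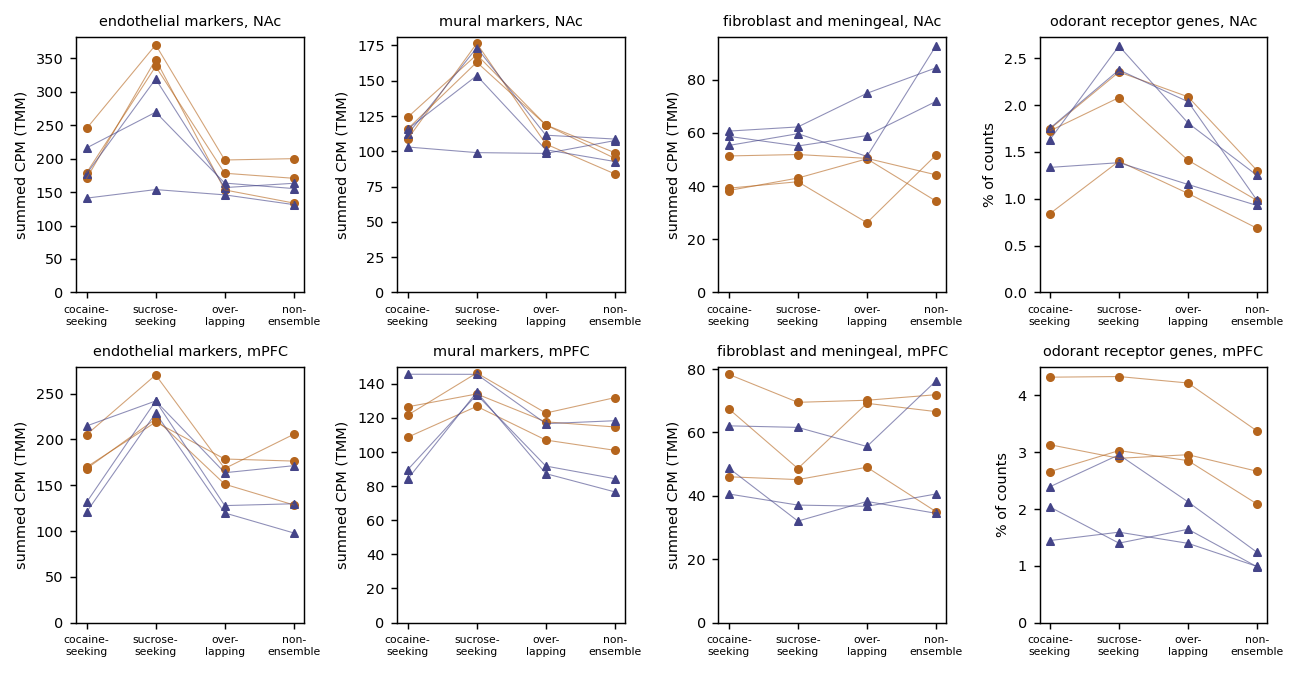
Summed CPM of endothelial, mural and fibroblast or meningeal markers and the percent of counts on odorant receptor genes, per library in the 4 sorted populations of NAc (top) and mPFC (bottom), with axes from 0, a line for each pool, circles for female and triangles for male pools. Endothelial sums in NAc reach 370 CPM at sucrose-seeking and no more than 200 CPM at non-ensemble, and the odorant receptor share is higher at sucrose-seeking than at non-ensemble in every pool.

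The genes that work with collagens and laminins moved in both directions. Of 13 basement membrane partners, 4 were higher and 3 lower in NAc and 3 were higher and 1 lower in mPFC. Agrn, the heparan sulfate proteoglycan agrin, rose by 0.45 in NAc and 0.58 in mPFC, and the adhesive glycoprotein Fn1 rose by 0.65 in mPFC, while the collagen-binding Sparc fell by 0.77 in NAc and 0.50 in mPFC and the calcium-binding Smoc1 fell by 0.64 in NAc. Of 29 collagen biosynthesis genes, 6 were higher and 3 lower in NAc and 4 were higher and 1 lower in mPFC. The prolyl hydroxylase P3h3 (0.82 and 0.80), the procollagen proteinase Bmp1 (0.64 and 0.67) and, in mPFC, the peroxidase Pxdn (0.72), which cross-links type IV collagen, rose, whereas the secretory coat gene Sec31a fell by 0.45 in NAc. Of 16 receptors, 4 were higher and 2 lower in NAc and 4 higher and 0 lower in mPFC. The collagen-binding integrin Itga1 rose by 1.17 in NAc, and Itga2 (1.29), Itga6 (0.51) and Itga10 (1.02) rose in mPFC, whereas the laminin receptor dystroglycan, Dag1, fell by 0.49 and the syndecan Sdc4 by 0.66 in NAc.

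The cocaine-seeking and overlapping populations were compared with the same non-ensemble libraries, so their values share controls with those above and are given side by side. Cocaine-seeking against non-ensemble gave 0 calls among the members by edgeR in NAc, where 0.145% of all genes were called in either direction, with 10 members at an unadjusted p under 0.05 and 0 calls by DESeq2. In mPFC it gave 0 calls by edgeR (background 0.0901%), with 4 members at an unadjusted p under 0.05 and 1 call by DESeq2. The member medians were 0.23 and 0.19, against all-gene medians of 0.08 and 0.10. Col4a1 had 43.5 to 59.3 CPM in cocaine-seeking NAc libraries (median 48.6), which lies between the sucrose-seeking and the non-ensemble medians, and Col6a1 had a median of 108 CPM.

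With the pool as a block, 5 members were called in NAc, where 9.35% of genes were, and 6 in mPFC, where 15.8% of genes were. In NAc these were Col6a1 (0.45), Lamb3 (0.57), Col27a1 (0.64) and Col22a1 (0.62), which were higher, and Col9a2 (-0.76), which was lower. In mPFC, Col6a1 (0.36), Col11a1 (0.51), Col4a1 (0.35), Col12a1 (0.51), Col27a1 (0.59) and Col22a1 (0.46) were higher. Microglial markers, which fell in 1 of 8 cases in sucrose-seeking NAc libraries, were higher in 6 of 8 cases in cocaine-seeking NAc libraries and in 7 of 8 in mPFC, and their part in these values was not tested. Odorant receptor genes had a median of 0.49 in NAc and 0.51 in mPFC in this comparison and were higher in 6 of 6 pools of each region.

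In overlapping against non-ensemble libraries, 2 members were higher in NAc, where 1.97% of genes were called. Col27a1 had 20.1 to 33.5 CPM (median 27.9) against 7.19 to 15.9 CPM (median 12.7) with no overlap, a log2 fold change of 1.17 (SE 0.16, adjusted p = 0.000255). The Col27a1 call was lost in females alone and with protein-coding transcripts only. Col6a3 had 14.1 to 23.2 CPM against 7.87 to 16.02 CPM, a log2 fold change of 0.61 (SE 0.16, adjusted p = 0.0436), and its call remained in 4 of 12 fits that left out a library. Without female pool 2, the call of Col27a1 remained and that of Col6a3 was lost, with 2 members called in NAc and 0 in mPFC. This fit called 474 genes higher and 498 lower of 28138 in NAc, and 46 and 16 of 29373 in mPFC. In mPFC 0 members were called by edgeR (background 0.568%), with 8 at an unadjusted p under 0.05 and 3 calls by DESeq2. The block raised these counts to 13 in NAc, where 16% of genes were called, and to 10 in mPFC, where 14.4% were, all of them higher. Among them, Col4a1 had 0.48 in NAc and 0.32 in mPFC, Col11a1 had 0.58 and 0.48, and Col6a1 had 0.51 and 0.36. Odorant receptor genes had medians of 0.54 and 0.43 here, and 8 of 8 microglial markers were higher in NAc and 7 of 8 in mPFC.

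The direct comparison of the ensembles put cocaine-seeking below sucrose-seeking libraries for part of the members. In NAc, 1 member was higher, where 4.36% of genes were, and 5 were lower, where 0.926% were, with a member median of -0.26 against -0.01 over all genes. Col24a1 had 2.65 to 9.62 CPM against 8.75 to 15.1 CPM (log2 fold change -1.02, SE 0.25, adjusted p = 0.0233), and Col11a1 had 19.2 to 70.0 CPM against 58.4 to 99.0 CPM (-0.74, SE 0.19, adjusted p = 0.0265). Both were lower in 6 of 6 pools. Col4a1 (-0.49, adjusted p = 0.0428), Col4a2 (-0.45, adjusted p = 0.0291) and Col11a2 (-0.41, adjusted p = 0.0434) were lower, and Col1a2 was higher (0.67, adjusted p = 0.042). These calls were lost when some single libraries were left out. Without the cocaine-seeking library of male pool 1 or of female pool 2, 0 members were called. The same held without the sucrose-seeking library of male pool 2, female pool 1 or female pool 3. The all-gene counts of these fits are not given here, so their counts of 0 have no background to be read against. Without female pool 2 as a whole 0 members were called, where 272 genes were higher and 88 lower of 28138. With the block, 13 members were called (2 higher, 11 lower), where 15% of genes were, including Col6a1 (-0.58) and Lama5 (-0.60) as lower and Col25a1 (0.35) as higher.

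In mPFC, cocaine-seeking against sucrose-seeking gave 0 member calls by edgeR (background 0.416%), with 15 members at an unadjusted p under 0.05 and 3 calls by DESeq2. The block gave 11, all lower, where 5.56% of genes were called, among them Col6a1 (-0.62), Col4a1 (-0.59), Col4a2 (-0.64), Lama2 (-0.45), Lama3 (-0.69), Col11a2 (-0.54) and Col5a3 (-0.82). Endothelial markers had medians of -0.65 in NAc (4 of 13 lower) and -0.52 in mPFC (0 of 13 called) in the same comparison, while odorant receptor genes had -0.23 and 0.06 with 0 called, and other markers moved the opposite way. Microglial markers were higher in cocaine-seeking libraries in 8 of 8 cases in NAc (median log2 fold change 1.10) and in 7 of 8 in mPFC (1.29), with sums of 326 to 425 CPM against 124 to 209 CPM in NAc and 240 to 444 CPM against 121 to 158 CPM in mPFC. In NAc, 7 of 8 astrocyte markers (median 0.56) and 6 of 8 neuronal markers (0.48) were higher, and 2 of 11 mural markers were lower. The part of these genes in the member values was not tested.

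Between regions, compared in the 12 non-ensemble libraries, 4 members were higher in NAc, where 9.57% of 26009 genes were, and 11 were lower, where 6.08% were, with a member median of -0.46 against -0.13 over all genes. The other collagens held most of these calls (2 higher, 7 lower), and basement membrane members held 0 higher and 3 lower. Col6a3 differed most, at 7.81 to 15.8 CPM (median 11.9) in NAc and 30.4 to 172 CPM (median 110) in mPFC with no overlap, a log2 fold change of -3.20 (SE 0.30, adjusted p = 2.33e-06). It passed the test in every alternative tried, also in male pools 1 and 3 alone. Col25a1 had 74.5 to 113 CPM in NAc and 80.7 to 272 CPM in mPFC (-1.11, adjusted p = 0.00288).

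Col5a3 (-1.84), Col8a2 (-1.51), Col23a1 (-1.32) and Col26a1 (-0.82) were lower in NAc with no overlap. Col15a1 (-1.70), Col18a1 (-0.86), Lama3 (-0.80), Col9a3 (-0.75) and Col22a1 (-0.70) were lower with overlap. The calls of Lama3, Col9a3 and Col22a1 were lost with the pool as a block (adjusted p = 0.0808, 0.102 and 0.0708) and remained in 5, 2 and 3 of the 12 fits that left out a library. Higher in NAc were Col11a1, at 25.5 to 59.0 CPM against 3.77 to 15.3 CPM (1.59, SE 0.25, adjusted p = 0.00036), Col19a1 (1.24) and Col11a2 (0.57), each with no overlap, and Col9a2 (0.91), whose call remained in 3 of those 12 fits. The abundant chains Col4a1 (0.08) and Col6a1 (-0.08) did not pass the test. Because the mPFC libraries differed among themselves in Slc17a7, the counts by pool are given too. Females alone gave 20 calls, where 3725 genes were higher and 2763 lower of 23769. Males alone gave 4, where 153 genes were higher and 189 lower of 21693. Male pools 1 and 3 alone gave 1, where 24 genes were higher and 36 lower of 21633. Without female pool 2, 14 members were called, where 2372 genes were higher and 1183 lower of 27119. Lama3, Col9a3 and Col9a2 were no longer among the members called.

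Markers of several cell types differed between the same libraries. In NAc, 7 of 8 neuronal, 8 of 9 striatal neuron, 7 of 8 oligodendrocyte, 5 of 8 astrocyte and 2 of 8 microglial markers were higher, with medians of 0.53, 1.10, 0.48, 0.36 and 0.47. Neuronal markers summed to a median of 6076 CPM in NAc and 4378 CPM in mPFC. Of the 9 cortical excitatory genes, 3 were higher and 1 lower in NAc, while 0 of 13 endothelial markers were called by edgeR. Odorant receptor genes were lower in NAc (121 of 1086 called, median -0.60). The part of these genes in the member differences was not tested.

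Averaged over the sexes, naive libraries held less of most of the called members than non-ensemble libraries. In NAc, 1 member was higher, where 9.67% of genes were, and 10 were lower, where 8.33% were. Lamb1 was the higher one (0.46, SE 0.09, adjusted p = 0.00327), at 43.6 to 64.0 CPM against 29.3 to 49.7 CPM. Col6a3, at 2.68 to 6.61 CPM against 6.77 to 14.1 CPM, and Col25a1, at 44.8 to 61.6 CPM against 66.6 to 97.7 CPM, were lower with no overlap, by log2 fold changes of -1.04 and -0.50. Others were Lamc3 (-1.06), Lama1 (-0.69), Col18a1 (-0.68), Col9a2 (-0.71), Col2a1 (-0.98), Col10a1 (-1.17) and Col8a2 (-1.39).

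In mPFC, 2 members were higher, where 14.9% of genes were, and 17 were lower, where 19.9% were. Col6a3 fell by 2.30 (adjusted p = 3.62e-05), and Col26a1 (-1.04), at 4.75 to 13.1 CPM against 14.5 to 24.8 CPM, was lower with no overlap. Col25a1 (-1.07), Col15a1 (-1.22), Col5a3 (-1.15), Col23a1 (-1.02), Col8a1 (-1.19) and Col10a1 (-1.40) were among the rest, and Col1a2 (0.47) and Col19a1 (0.60) were the higher ones. The remaining calls, Col2a1, Col4a2, Col6a4, Col6a6, Col8a2, Col17a1, Col18a1, Col27a1 and Lama3, had log2 fold changes between -0.93 and -0.48. The naive libraries numbered female 2 held Ddx3y at 0.0733 CPM in NAc and 0 CPM in mPFC, so they did not share the Y-linked signal of sorted female pool 2. With the naive and the non-ensemble libraries of that number both left out, 6 members were called in NAc, where 2041 genes were higher and 1304 lower of 26242. In mPFC this fit called 12 members, where 4007 genes were higher and 3918 lower of 28463. Males alone gave 3 in mPFC, all lower, where 1005 genes were higher and 2059 lower of 21655. In NAc males gave 3 higher and 6 lower members, where 1724 genes were higher and 1944 lower of 22391. Females gave 0 higher and 3 lower in NAc, where 448 genes were higher and 154 lower of 21695. In mPFC they gave 4 higher and 18 lower, where 3756 genes were higher and 3039 lower of 25439. Member medians were -0.50 in females and -0.009 in males in NAc, and -0.54 and -0.07 in mPFC. A sex difference was not tested here.

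Cell type markers moved in the naive comparison too. Microglial markers were higher in 7 of 8 cases in each region (medians 0.72 and 0.92), with sums of 278 to 321 CPM against 143 to 213 CPM in NAc and 235 to 331 CPM against 116 to 194 CPM in mPFC. In mPFC, 7 of 8 neuronal (median 0.52), 9 of 9 cortical excitatory (1.04) and 4 of 8 astrocyte markers were higher. In NAc, 5 of 9 striatal neuron and 3 of 9 cortical excitatory genes were higher and 5 of 12 fibroblast and meningeal markers were lower (median -0.76), at 20.9 to 37.5 CPM against 29.5 to 81.9 CPM, while in mPFC 2 of these 12 were higher. Odorant receptor genes had medians of -0.67 in NAc and -0.73 in mPFC, and the part of all these genes in the member values was not tested. The effective lengths of the quantification also differed, with a median of 0.533 of the annotated length in naive and 0.464 in sorted libraries, and this cannot be told apart from the population.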

How the data were processed

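RNA of sorted brain cells was amplified with a low-input SMART-seq kit after ribosome depletion and sequenced as paired reads (the labels give the molecule as polyA RNA). The authors trimmed reads and quantified them against the GRCm39 transcriptome with Salmon, per the labels and the study's methods (no versions were named there). The deposited tables hold, per transcript, estimated counts and TPM that the authors normalised by effective length. Of 117209 transcript names, 116085 matched the mouse annotation, and 2.23% to 7.10% of counts in sorted libraries were on unmatched names and were left out.

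Estimated counts were summed per gene and rounded. Tests used edgeR 4.0.16 in R 4.3.3 (quasi-likelihood, TMM scaling, filterByExpr, Benjamini-Hochberg adjustment over all genes tested), with a call at an adjusted p under 0.05. A contrast averaged the female and male differences. The 24 sorted libraries of a region shared a fit, and naive and region comparisons used the 12 libraries concerned. CPM are TMM-scaled. Without the block, p-values measure the spread between libraries of the same sex, region and population. These fits treat libraries of the same pool as independent. With the pool as a block, p-values measure the spread left after pool differences are taken out. The test was checked on simulated data.

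The authors' methods describe pooled tissue that was then sorted into the populations, and the title numbers were read as marking the pools, which no source used here states. Deviations from the group means correlated with a mean r of 0.303 (36 pairs, lowest -0.0401) within pools and -0.150 between pools (72 pairs) in NAc, and 0.455 (lowest 0.166) and -0.226 in mPFC. Because deviations in a group of 3 libraries sum to 0, the between-pool values largely follow from the within-pool ones. They are not a second observation. A fit with the pool as a block was an alternative. Further alternatives were DESeq2 1.42.0, its size factors, no filter, protein-coding genes only, each sex, leaving out each library, and an adjusted p under 0.01 with a log2 fold change over 0.75. Chosen after seeing the data were protein-coding transcripts only, leaving out female pool 2, male mPFC pools 1 and 3 only, and TPM with annotated lengths.

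One member is not reported by name here. Named members are mainly those called in any comparison, plus the 2 most abundant of each class, with up to 3 called genes of each list of other genes. Genes named outside this rule include Col1a1, Col3a1, Col5a2, the minor chains Col4a3 to Col4a6 and the endothelial marker Cldn5. Members and lists were chosen with earlier results of these data known.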

Additional observations from a re-analysis of the deposited data

How the results depend on the processing

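The counts below are of members called. With the replicate block (the pool as a term), cocaine-seeking against non-ensemble gave 5 in NAc and 6 in mPFC, overlapping against non-ensemble 13 and 10, and cocaine-seeking against sucrose-seeking 13 and 11. For sucrose-seeking against non-ensemble and the region comparison the block kept the counts within 1.5 times. No paired analysis was possible for the naive libraries because their numbers do not mark a shared pool. DESeq2 gave 9 and 3 for overlapping against non-ensemble, 1 for cocaine-seeking against non-ensemble in mPFC, and 12 and 3 for cocaine-seeking against sucrose-seeking in NAc and mPFC. Over all genes, DESeq2 called 983 higher and 1120 lower of 27546 for overlapping in NAc, and 344 and 899 of 28851 in mPFC. For cocaine-seeking against non-ensemble in mPFC it called 385 higher and 756 lower of 28851. Against sucrose-seeking, it called 1858 and 815 of 27546 in NAc and 76 and 256 of 28851 in mPFC. Protein-coding genes only gave 6 and 1, and protein-coding transcripts only 1 and 1, for overlapping against non-ensemble in NAc and mPFC. With protein-coding genes, 450 were higher and 439 lower of 20447 in NAc, and 184 and 158 of 20740 in mPFC. With protein-coding transcripts, 225 genes were higher and 206 lower of 19932 in NAc, and 122 and 55 of 20283 in mPFC.

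In NAc, sucrose-seeking against non-ensemble gave 4 in males, and overlapping against non-ensemble gave 0 in females and 1 in males. For overlapping, 9 genes were higher and 1 lower of 25607 in females, and 26 and 4 of 24917 in males. Cocaine-seeking against sucrose-seeking gave 2 in females, 0 in males and 0 without female pool 2. For it, 29 genes were higher and 64 lower of 25607 in females, and 6 and 0 of 24917 in males. Without female pool 2, 272 genes were higher and 88 lower of 28138. In mPFC, sucrose-seeking against non-ensemble gave 0 in females, 0 in males, 0 in male pools 1 and 3, and 7 without female pool 2. Naive against non-ensemble gave 3 in NAc females and 3 in mPFC males, and 6 and 12 without the naive and non-ensemble libraries numbered female 2. In NAc females, 448 genes were higher and 154 lower of 21695. The region comparison gave 4 in males and 1 in male pools 1 and 3. Fits of 1 sex hold fewer samples. At an adjusted p under 0.01 with a log2 fold change over 0.75, counts were 11 (NAc) and 5 (mPFC) for sucrose-seeking against non-ensemble, 1 for overlapping against non-ensemble and 0 for cocaine-seeking against sucrose-seeking in NAc, and 2 and 8 for naive libraries in NAc and mPFC. The shares of all genes under this rule are not given here, so these counts have no background to be read against.

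Leaving out 1 library gave 16 to 24 (NAc) and 10 to 14 (mPFC) for sucrose-seeking against non-ensemble, 0 to 1 and 0 to 0 for cocaine-seeking against non-ensemble, 1 to 5 and 0 to 1 for overlapping against non-ensemble, 0 to 7 and 0 to 2 for cocaine-seeking against sucrose-seeking, 4 to 14 and 13 to 19 for naive libraries, and 11 to 16 between regions. For overlapping against non-ensemble in NAc, 5 and 4 came without the non-ensemble libraries of female pool 1 and male pool 1, and 1 without any of 7 other libraries, which lost Col6a3. For naive NAc libraries, 4, 5 and 6 came without naive male 1, 2 and 3, 6 without naive female 2 and 7 without non-ensemble male 2. The all-gene counts of the fits that left out 1 library are not given here, so these ranges and counts have no background to be read against. Directions turned in single genes. In males alone, naive against non-ensemble in mPFC gave log2 fold changes of 0.052 for Col18a1, 0.0043 for Col2a1, -0.39 for Col19a1 and 0.29 for Col8a2, and with protein-coding transcripts only 0.25 for Col27a1. The region difference of Col22a1 was 0.11 in males and 0.21 in male pools 1 and 3. The cause of these changes was not tested. Members under the odorant receptor mean of 3.90 TPM are limited by depth, and their uncalled values do not show that groups were alike.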
